A study of Mus musculus with 2 samples.

Results

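Antisense transcripts that were expressed in adult mouse kidney are described here: 161 genes that the GENCODE M21 annotation types as antisense and that each of the study's libraries measured at 1 TPM or above. TPM is a level per transcript length scaled to a common sum, so it allows levels of different genes to be compared. The 161 genes were selected from 2062 antisense genes with a row in the tables (7.81%), among 43346 gene rows in all. The rule leaves out Kcnq1ot1, Airn and Nespas and the genes of chromosomes X and Y, which removed 1 gene past the threshold by name and none by chromosome. Because the genes were chosen by TPM, their levels are given as a description, with no test.

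The tissue was whole kidney of C57BL/6J mice, an inbred strain, at an age of 8 weeks, with no treatment named. There is 1 group, adult kidney, with 2 libraries, called replicate 1 and replicate 2 after the labels, and each is described as mixed-sex littermate tissue with male and female animals pooled. Both libraries carry 1 donor label, yet each has its own biological replicate number. Whether they came from separate animals is not stated. Differences between the libraries thus measure only the spread between these samples, and how much of that spread is technical is not known. Polyadenylated RNA above 200 nt, freed of ribosomal RNA, went into strand-marked libraries, and no second condition was there to compare.

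An antisense transcript is read from the DNA strand opposite to another gene, usually a protein-coding one. Some start beside the coding gene's own promoter and run the other way, some come in from its far end, and others lie wholly within it. Certain antisense RNAs are known to act on the gene they overlap, for example by recruiting chromatin proteins or by transcription through its promoter, while for most no function is known. Their RNA can be told from that of the coding gene only in libraries that keep the strand.

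The 161 genes were few and low among kidney RNAs. In replicate 1 their TPM ran from 1.05 through a median of 3.02 to 52.9, and in replicate 2 from 1.04 through 2.48 to 39.2. Their TPM summed to 905 in replicate 1 and 762 in replicate 2, which is 0.0905% and 0.0762% of all TPM. By the same threshold 12273 of 21474 protein-coding genes were detected (57.2%), with medians of 14.1 and 12.5 TPM, and 124 of 2777 lincRNA genes (4.47%), with medians of 4.24 and 4.48 TPM. At the other end, 1062 antisense genes had a count of 0 in both libraries.

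The levels were spread unevenly over the genes. Of the 161, 116 had a mean TPM under 5, 34 reached 5 TPM in both libraries, 18 reached 10 and 6 reached 20. The 10 highest held 30.7% of the summed mean TPM. The counts behind these levels, estimated fragments per gene, ran from 13 through a median of 121 to 6617 in replicate 1, and from 17 through 152 to 6756 in replicate 2. A median count carries a counting error of 9.09% in replicate 1 and 8.11% in replicate 2, and the lowest count one of 27.7% and 24.3%. Nearest to the threshold from above were 1700084E18Rik at 1.11 and 1.04 TPM, Gm26850 at 2.12 and 1.05, and Zeb2os at 1.05 and 1.52, for replicates 1 and 2 in that order. Just below it were Ttc39aos1 at 3.37 and 0.99 TPM, Prox1os at 1.05 and 0.98, and Gm28424 at 0.95 and 1.35.

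The total over all genes was 67252609 expected counts in replicate 1 and 87330097 in replicate 2. Markers of the kidney's parts were present: all of the 6 proximal tubule, 4 thick limb, 4 principal cell and 5 podocyte markers listed reached 1 TPM in both libraries. The libraries differed in RNA of other tissues. The summed TPM of 7 skeletal muscle markers was 2.65 in replicate 1 and 819 in replicate 2, that of 7 adrenal cortex markers 52.9 and 0.97, and that of 6 lymphocyte markers 5.12 and 39.6. Whether these differences bear on any antisense gene below was not tested, and fewer cells of a type and less RNA per cell cannot be told apart in whole tissue.

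A processed polyadenylated RNA usually ends shortly after a signal hexamer, AATAAA or the variant ATTAAA. The last 50 bases of the leading annotated transcript, taken from the GENCODE M21 transcript sequences, are shown for 5 of the 12 highest antisense genes, to show what such an end looks like on the antisense strand. These 5 were picked because they hold a hexamer: of the other 7, 6 hold none, among them Gm16010 and Gm11695, and 1 had no matched sequence. Capitals mark the hexamer.
Rab10os: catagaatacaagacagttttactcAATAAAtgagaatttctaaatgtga
Hnf4aos: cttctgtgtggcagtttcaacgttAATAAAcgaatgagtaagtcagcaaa
Hoxb5os: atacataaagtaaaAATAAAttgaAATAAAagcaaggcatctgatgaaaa
Gm13594: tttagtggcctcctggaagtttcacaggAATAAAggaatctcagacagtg
Gm15879: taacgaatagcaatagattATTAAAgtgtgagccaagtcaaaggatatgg
In GRCm38 coordinates these stretches lie at chr12:3241361-3241410 on the + strand, chr2:163493807-163493856 on the - strand, chr11:96291024-96291073 on the - strand, chr2:65239626-65239675 on the + strand and chr16:4034371-4034420 on the - strand. Rab10os, Hnf4aos, Hoxb5os and Gm13594 end with AATAAA, which occurs there as a repeated match in Hoxb5os, and Gm15879 ends with ATTAAA. A transcript with sequence was found for 151 of the 161 genes. Of these, 56 (37.1%) had AATAAA in the last 50 bases and 78 (51.7%) had either hexamer. The share with either was 42.8% over all antisense genes, 40.9% over antisense genes under 0.1 TPM in both libraries, 61.7% over protein-coding genes and 69.5% over protein-coding genes at 1 TPM or more. The hexamers were searched on the transcript strand alone, and a match is a description of the annotated end, not of a site in use.

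For 142 of the 161 antisense genes the annotation places a protein-coding gene on the other strand (88.2%, against 89.9% of all antisense genes with a row). In 122 of these pairs the exons overlap, in 75 the antisense exons cover coding sequence, and in 20 the spans overlap with no exon against an exon. The exonic overlap was between 3 and 2617 bases, with a median of 307.5. Exons were taken over all annotated transcripts of a gene. Mature RNAs of a pair are complementary in a shared stretch only where the transcripts present hold it. That was not examined over the 122 pairs. Such stretches of 60 bases within coding exons are shown for Gm11695 and Slc16a5, for Gm15879 and Dnase1, and for Tmem147os and Gapdhs. The pairs were taken in order of mean antisense TPM where such a stretch lay outside annotated untranslated regions, with a chromosome left out. Their antisense levels happen to lie near, far below and far above the coding level. Each sequence is written 5′ to 3′ on its own strand, and capitals mark the Dnase1 start codon and its complement.
Gm11695: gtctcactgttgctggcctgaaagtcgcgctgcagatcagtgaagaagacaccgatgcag
Slc16a5: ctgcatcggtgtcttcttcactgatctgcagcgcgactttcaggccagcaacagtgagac
Gm15879: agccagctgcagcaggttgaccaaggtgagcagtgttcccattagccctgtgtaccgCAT
Dnase1: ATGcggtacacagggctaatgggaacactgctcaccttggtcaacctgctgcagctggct
Tmem147os: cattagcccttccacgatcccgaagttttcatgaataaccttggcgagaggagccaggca
Gapdhs: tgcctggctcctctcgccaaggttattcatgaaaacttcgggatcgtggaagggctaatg
The stretches lie at chr11:115462704-115462763, chr16:4037551-4037610 and chr7:30732612-30732671 in GRCm38, with Slc16a5 and Dnase1 on the + strand and Gapdhs on the - strand. Exons overlapped in 85.9% of the pairs of expressed antisense genes, beside 63.2% of all antisense-coding pairs, and coding sequence in 52.8% beside 46.7%. These shares are descriptions with no test.

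The highest antisense gene was Gm16010 (ENSMUSG00000085541.1; GRCm38 chromosome 9, 97015966-97022043, + strand), at 52.9 TPM in replicate 1 and 39.2 in replicate 2. It lies head to head with Spsb4, a substrate adaptor of ubiquitin ligases, which was at 47.3 and 41.4 TPM. The antisense RNA was thus about as abundant as the coding RNA, higher in replicate 1 and lower in replicate 2. Gm11695 (chromosome 11, 115462045-115463454, - strand) was next, at 36.7 and 25.6 TPM, opposite Slc16a5 of the monocarboxylate transporter family at 33.0 and 20.6 TPM. Rab10os (chromosome 12, 3235504-3250377, + strand) had 29.7 and 25.3 TPM, and Rab10, a small GTPase of vesicle traffic, 23.5 and 22.8. In both of these pairs the antisense gene was the higher partner in each library.

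**Figure D1:**
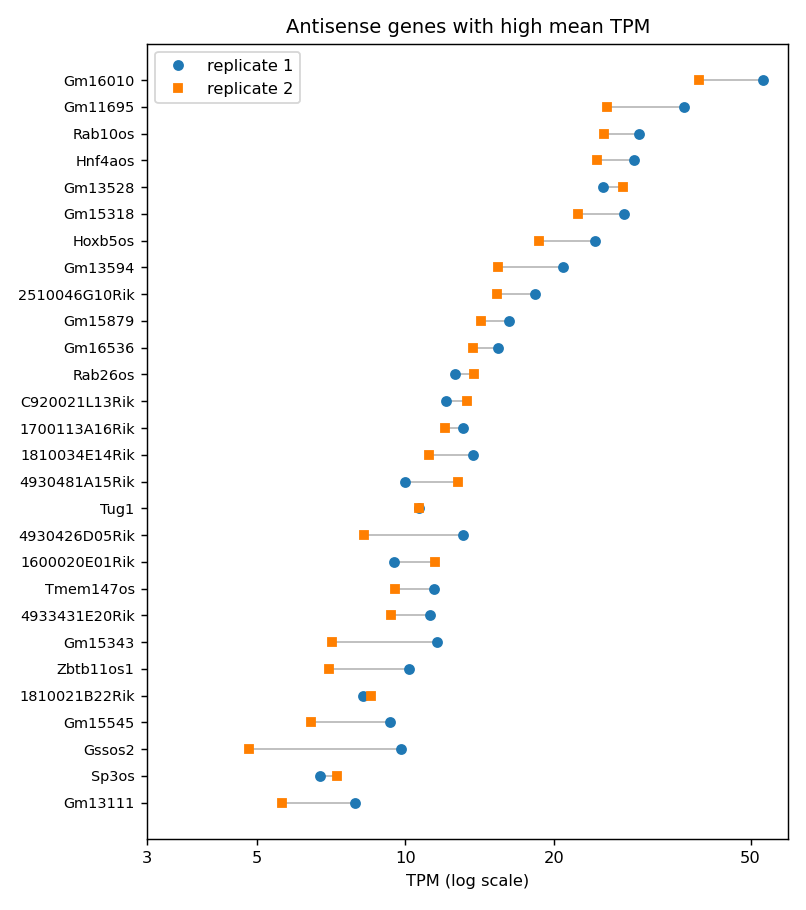
TPM (log axis) of antisense genes with high mean levels, 1 row per gene, with a circle for replicate 1, a square for replicate 2 and a grey line joining them. Gm16010 stands at the top with 52.9 and 39.2 TPM, and most circles lie to the right of their square.

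Of the 20 highest, 15 had the higher TPM in replicate 1, 4 in replicate 2, and Tug1 was at 10.67 TPM in each. Over the 161 genes 105 were higher in replicate 1, 54 in replicate 2 and 2 equal. That is 65.2% higher in replicate 1, beside 72.1% of all genes detected at 1 TPM, so genes at large leaned the same way. The Spearman correlation between the libraries' TPM was 0.898 across the 161 genes, which share the libraries and their scaling.

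Other genes of the upper 20 stood opposite regulators and enzymes. Gm13528 was at 25.1 and 27.6 TPM within Ralgps1, an exchange factor for Ral GTPases at 4.27 and 3.24 TPM, and 1810034E14Rik was at 13.7 and 11.1 TPM within Cdc14b, a phosphatase at 3.60 and 3.69. Neither shares exonic bases with the coding gene, and both were higher than it in each library. The nearest starts of 1810034E14Rik and Cdc14b are 58 bases apart. Gm13594 was at 20.8 and 15.4 TPM, with its start 35 bases from that of Cobll1, an actin-binding protein at 41.0 and 34.2 TPM. 2510046G10Rik was at 18.3 and 15.3 TPM beside Sgf29, a histone-reading subunit of the SAGA complex, at 27.2 and 19.0. Gm16536 was at 15.4 and 13.7 TPM within Bace1, the beta-secretase, at 24.4 and 17.8. In these last 3 pairs the coding gene was the higher partner in each library.

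Tail to tail with their partners lay C920021L13Rik, at 12.1 and 13.3 TPM opposite BC028528 at 4.38 and 5.33, and 1700113A16Rik, at 13.1 and 12 TPM opposite the transcription factor gene Mef2d at 33.0 and 27.7. 4930481A15Rik was at 9.97 and 12.8 TPM opposite Drap1, a corepressor of transcription, at 95.4 and 99.5. 4930426D05Rik was at 13.1 and 8.23 TPM, head to head with Klhl14, a kelch-domain gene at 2.33 and 1.70. The order within each of these pairs was the same in both libraries.

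Antisense genes of kidney transcription factors formed the largest of the partner lists. Of 98 such factors measured, 84 were detected and 22 have at least 1 antisense gene with a row, 27 in all. Of these 27 antisense genes 9 were expressed (33.3%, beside 7.81% of all antisense genes), a difference that was not tested. Hnf4a, a nuclear receptor that directs proximal tubule genes, was at 290 and 235 TPM, and Hnf4aos (chromosome 2, 163493807-163541720, - strand) was at 29.1 and 24.4 TPM, 10.04% and 10.4% of it. Their spans overlap but no exon is shared, and the nearest starts are 5097 bases apart. Hnf4aos was the lower partner in both libraries.

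The Hox genes, which set position along the body axis and stay active in the adult kidney, brought others. Hoxb5os (chromosome 11, 96291024-96306910, - strand) spans Hoxb5 and was at 24.3 and 18.7 TPM, against 6.44 and 5.08 for Hoxb5. Hoxd3os1 was at 6.47 and 6.57 TPM beside Hoxd3 at 7.94 and 7. Hoxb3os, which covers 2250 exonic bases of Hoxb3, was at 6.26 and 4.95 TPM against 10.8 and 6.64. Hoxb5os exceeded its Hox partner in both libraries, and Hoxd3os1 and Hoxb3os did not.

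Further factors were an epithelial and a mesenchymal one. Gm16136 was at 3.07 and 3.91 TPM opposite Grhl2, a regulator of epithelial junctions in the distal nephron, at 3.75 and 3.28, with the order reversed between libraries. Zeb2os was at 1.05 and 1.52 TPM within Zeb2, a repressor of epithelial genes, at 17.7 and 17.8. Over the 9 pairs the median log2 ratio of antisense to coding level, computed on TPM + 1, was -0.22 in replicate 1 and -0.36 in replicate 2, beside -1.74 and -1.73 over all 142 pairs. The list was drawn up with earlier results of these data known.

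Of 385 solute carrier genes measured, which move nutrients, ions and metabolites across membranes, 289 were detected and 43 have antisense genes with a row, 44 in all. Of these 44 antisense genes 5 were expressed (11.4%, beside 7.81% of all antisense genes). Gm11695 on Slc16a5 was one. Gm11788 was at 2.77 and 2.05 TPM opposite Slc25a10, the mitochondrial dicarboxylate carrier, at 723 and 497. Panct2 was at 1.52 and 1.74 TPM beside Slco4c1, an organic anion transporter, at 1.23 and 0.70. Gm26850 was at 2.12 and 1.05 TPM beside Slc33a1, an acetyl-CoA carrier, at 36.2 and 28.5, and A530020G20Rik at 1.41 and 1.08 TPM beside Slc44a3 at 7.20 and 6.90. The antisense gene was the higher partner in both libraries for Gm11695 and Panct2. Among 397 genes named Zfp, 221 were detected, 24 have an antisense gene with a row, and that of Zfp335, Zfp335os, was expressed, at 2.97 and 2.74 TPM against 19.8 and 13.5. None of the 68 measured cell marker genes had an expressed antisense partner, although 4 have an antisense gene with a row.

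Names ending in os, for opposite strand, were carried by 32 of the 161 genes (12.3% of the 261 antisense genes with names ending in os or as). For 21 of them the coding partner was the namesake by its symbol in the annotation. A partner listed under a changed symbol was not counted. Sp3os was at 6.71 and 7.27 TPM beside Sp3, a GC-box factor at 10.4 and 9.07, and Sox6os at 3.98 and 3.51 TPM within Sox6 at 4.64 and 4.87. Arhgap27os2 was at 6.10 and 4.45 TPM within Arhgap27, an activator of GTPase turnover, at 36.0 and 25.4. These antisense genes stayed below their namesake in both libraries.

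For other names the coding gene was far above its antisense gene. Gssos2 was at 9.79 and 4.83 TPM against 237 and 163 for Gss, glutathione synthetase. Man2c1os was at 2.19 and 1.97 TPM against 166 and 118 for Man2c1, a mannosidase. Hk1os was at 1.55 and 2.01 TPM against 46.7 and 40.5 for Hk1, hexokinase. The coding RNA exceeded the antisense RNA more than 10-fold in each of these pairs and libraries. Proscos was at 2.67 and 2.66 TPM against 35.1 and 33.5 for Plpbp, and Tmem51os1 at 1.45 and 1.51 TPM against 45.9 and 40.0 for Tmem51. Chn1os3 was at 1.92 and 1.09 TPM against 9.46 and 8.37 for Chn1, and Frmd8os at 1.07 and 1.56 TPM against 14.2 and 15.0 for Frmd8.

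The order was turned for Zbtb11os1, at 10.2 and 7 TPM against 2.27 and 2.14 for Zbtb11, and for Erich2os, at 3.61 and 3.35 TPM against 1.72 and 1.77 for Erich2. Erich2 was also the partner of Gad1os, at 4.6 and 2.87 TPM, so these 2 pairs share a coding gene. For others the gene with the longest overlap was not the namesake. Brip1os was at 5.30 and 5.48 TPM opposite Med13 at 15.3 and 12.8, Atad3aos at 3.16 and 2.44 TPM opposite Vwa1 at 20.99 and 14.5, and Ccdc142os at 5.08 and 2.43 TPM opposite Gm42688 at 6.94 and 4.5. Here the coding gene was the higher partner in each library.

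Head-to-head pairs were the most frequent arrangement. The spans overlapped at the 5′ ends in 66 of the 142 pairs (46.5%, against 24.3% of all 1853 antisense-coding pairs), at the 3′ ends in 39 (27.5% against 15.9%), and the antisense gene lay inside the coding gene in 32 (22.5% against 56.3%). In 5 pairs the coding gene lay inside the antisense gene (3.52% against 3.40%). The nearest starts of the pair were within 1000 bases in 77 of 142 pairs (54.2%, against 30.5% of all pairs) and within 300 bases in 51. Most of those 51 were head to head: 41, with a median distance between starts of 175 bases in that class and 11751 bases among the tail-to-tail pairs. These shares too are descriptions with no test.

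**Figure D2:**
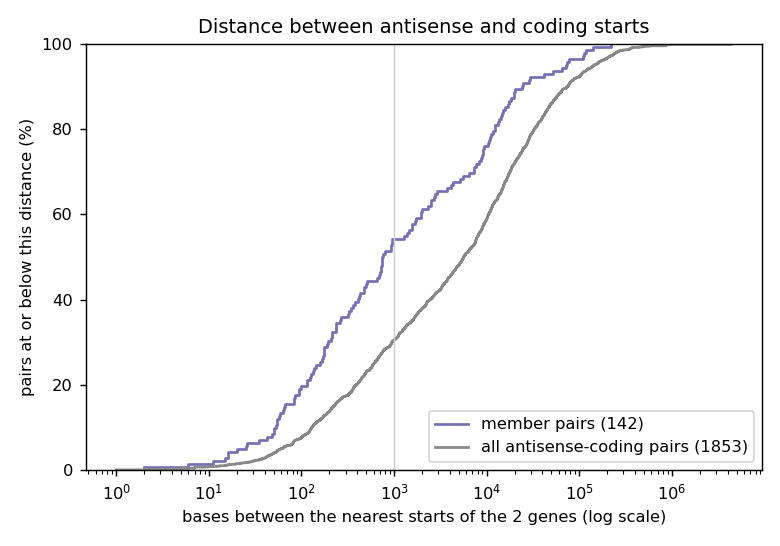
Cumulative share of pairs (percent, y axis) against the distance in bases between the nearest annotated starts of the antisense and the coding gene (x axis, log scale), for the 142 pairs of expressed antisense genes and for all 1853 antisense-coding pairs. The vertical line is at 1000 bases, where the curves stand at 54.2% and 30.5%.

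Promoter sequence from RefSeq on GRCm38.p6, running from 250 bases before to 50 after a start, matched an annotated start within 100 bases for 75 of the 161 genes (46.6%). Their median GC content was 61.7%, against 53.0% for the 586 antisense genes matched and 61.0% for protein-coding genes at 1 TPM or more. A CpG observed-to-expected ratio of 0.6 or more is the usual mark of a CpG island. It was found in 57.3% of the expressed antisense promoters, 29.5% of all antisense promoters and 70.8% of detected coding promoters. Of all antisense genes only 28.4% were matched. Starts within 1000 bases of the partner's start were also more frequent among expressed pairs (54.2% against 30.5%). A window can then hold coding promoter sequence. The part of either difference in these and the motif shares was not tested. In all, 4 promoters, or the part of each outside annotated untranslated regions of coding genes, are shown for head-to-head genes that have an annotated start within 300 bases of a coding start. The RefSeq start that these promoters surround need not be that one: it lies 377 bases from the nearest start of the coding partner for Tug1, 1080 for 1600020E01Rik, 159 for 1810021B22Rik and 4203 for Hoxd3os1. Capitals mark GGGCGG or its complement CCGCCC (the GC box bound by Sp1-like factors) in Tug1 and 1810021B22Rik, and CCAAT or its complement ATTGG (the CCAAT box) in 1600020E01Rik. Hoxd3os1 holds none of the motifs searched.
Tug1: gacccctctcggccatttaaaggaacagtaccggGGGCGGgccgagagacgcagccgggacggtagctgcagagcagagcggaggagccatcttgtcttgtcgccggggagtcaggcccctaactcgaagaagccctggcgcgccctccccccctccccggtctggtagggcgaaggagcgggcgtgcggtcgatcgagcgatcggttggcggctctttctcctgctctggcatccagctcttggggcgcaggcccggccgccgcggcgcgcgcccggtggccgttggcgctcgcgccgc
1600020E01Rik: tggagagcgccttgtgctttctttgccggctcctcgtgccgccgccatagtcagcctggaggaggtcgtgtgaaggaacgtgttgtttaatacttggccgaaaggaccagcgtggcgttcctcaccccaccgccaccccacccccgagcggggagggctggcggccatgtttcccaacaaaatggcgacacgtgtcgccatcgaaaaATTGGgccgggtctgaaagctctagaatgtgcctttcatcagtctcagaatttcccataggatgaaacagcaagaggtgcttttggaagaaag
1810021B22Rik: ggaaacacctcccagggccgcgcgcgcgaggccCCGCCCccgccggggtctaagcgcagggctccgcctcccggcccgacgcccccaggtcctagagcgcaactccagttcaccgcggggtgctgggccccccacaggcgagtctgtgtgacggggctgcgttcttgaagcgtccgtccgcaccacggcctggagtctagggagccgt
Hoxd3os1: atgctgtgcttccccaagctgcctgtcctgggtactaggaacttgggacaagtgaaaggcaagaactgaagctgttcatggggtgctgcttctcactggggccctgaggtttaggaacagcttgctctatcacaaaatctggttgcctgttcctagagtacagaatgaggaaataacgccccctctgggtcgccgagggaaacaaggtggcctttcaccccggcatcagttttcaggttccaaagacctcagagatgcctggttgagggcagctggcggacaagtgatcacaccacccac
These are chr11:3648765-3649064 (- strand), chr6:86527151-86527450 (+ strand), chr15:89075805-89076012 (- strand) and chr2:74716081-74716380 (- strand). On either strand GGGCGG was found in 61.3% of the 75 expressed antisense promoters, 33.3% of all antisense promoters and 64.6% of detected coding promoters. CCAAT was found in 49.3%, 35.2% and 37.7%, the ETS-type core CCGGAA in 18.7%, 11.3% and 28.2%, and TATAAA in 4.0%, 9.56% and 7.03%. These motifs do not contain each other, and a match says only that the letters are there.

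Tug1 (chromosome 11, 3639785-3649673, - strand), a conserved long noncoding RNA, has an annotated start 86 bases from one of Morc2a, an ATPase of heterochromatin silencing. It was at 10.67 TPM in each library and Morc2a at 7.13 and 6.54. The nearest annotated starts of 1600020E01Rik and Pcbp1, an RNA-binding protein, are 50 bases apart, and 1600020E01Rik was at 9.50 and 11.5 TPM against 127 and 110. Those of 1810021B22Rik and Trabd are 25 bases apart, and 1810021B22Rik was at 8.19 and 8.50 TPM against 39.3 and 31.2. Over all 51 pairs with starts within 300 bases the median antisense level was 16.9% and 16.4% of the coding level. The lowest were 0.703% in replicate 1, for B230322F03Rik and Nudt19, and 0.881% in replicate 2, for Gm15879 and Dnase1, while Tug1 was above Morc2a.

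No coding gene overlapped the other 19 genes on the opposite strand. For 14 of them a coding start on that strand lay within 1000 bases, so they resemble the head-to-head pairs with a gap. The distances were 16 bases from 2810001G20Rik to Cox10, 64 from Med9os to Med9, 95 from Etaa1os to Etaa1, 125 from Plekhd1os to Plekhd1 and 166 from Map2k3os to Map2k3. Levels in replicates 1 and 2 were 2.68 and 3.33 TPM for 2810001G20Rik, 1.85 and 1.5 for Med9os, 4.14 and 3.90 for Etaa1os, 1.79 and 1.62 for Plekhd1os and 1.97 and 1.85 for Map2k3os. Chrna1os, at 3.04 and 4.54 TPM, lay 4512 bases from the start of Chrna1. The 19 genes had median TPM of 2.68 and 2.42, near the medians of 3.02 and 2.48 over the 161. 2810001G20Rik was chosen after its values were seen.

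The coding partners ranged from undetected to abundant. Their median TPM was 16.4 in replicate 1 and 13.97 in replicate 2, and 124 of 142 pairs (87.3%) had a partner at 1 TPM or more in both libraries. Over these 124 pairs the partner medians were 20.6 and 17.8 TPM, beside 14.1 and 12.5 over all coding genes detected by the same threshold. The antisense gene was lower than its partner in both libraries in 104 pairs, higher in both in 33, and in 5 the order differed. The median antisense level was 20.8% of the coding level in replicate 1 and 22.9% in replicate 2. In 42 pairs it was under 10% in both libraries. The Spearman correlation between the antisense and the coding level was -0.06 across these pairs, whose members share libraries. The antisense genes were chosen by level, so this cannot show whether the levels are related over all antisense genes. The log2 ratio of a pair was much the same in both libraries, with a Spearman correlation of 0.989 across pairs.

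**Figure D3:**
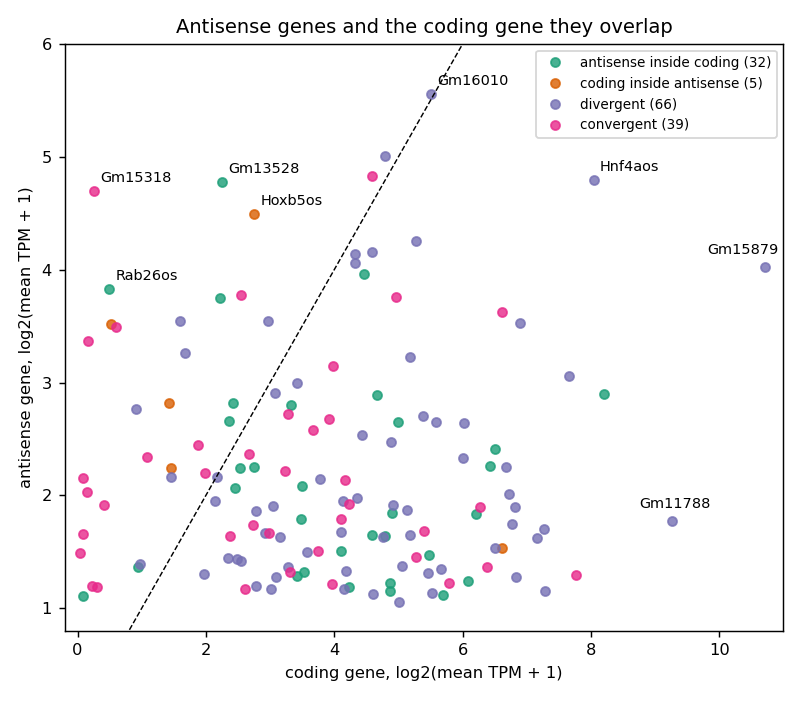
Level of the antisense gene (y axis) against that of its coding partner (x axis), both as log2 of the mean TPM of the 2 libraries plus 1, for 142 pairs coloured by arrangement, with the number of pairs of each in brackets. The dashed line marks equal levels, and 108 of the 142 points lie below it. Gm15879 is farthest to the right, opposite Dnase1.

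The ratio varied with the arrangement. The median log2 ratio was -2.21 and -2.19 in the 66 head-to-head pairs, -2.14 and -2.13 in the 32 with the antisense gene inside, -1.06 and -0.94 in the 39 tail-to-tail pairs, and 1.76 and 0.59 in the 5 with the coding gene inside. The antisense gene was the higher partner in both libraries in 7 of 66 (10.6%), 7 of 32 (21.9%), 15 of 39 (38.5%) and 4 of 5 (80.0%) of them. The coding partners differed as well: their median TPM was 25.5 and 19.99 in head-to-head pairs and 9.46 and 6.64 in tail-to-tail pairs. The antisense medians were close, at 2.98 and 2.49 TPM in the former and 3.16 and 2.63 in the latter.

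**Figure D4:**
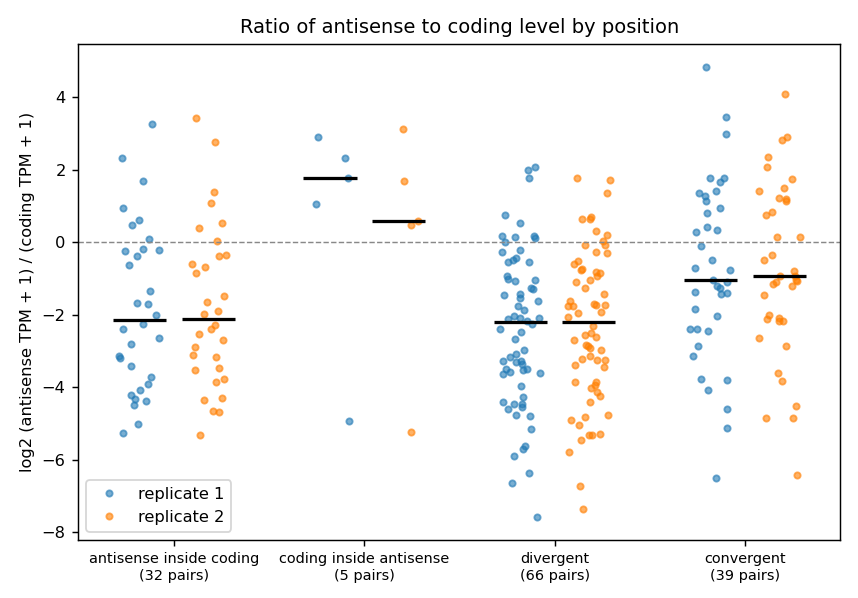
Log2 ratio of antisense to coding level, on TPM + 1, for every pair in replicate 1 (blue) and replicate 2 (orange), by arrangement on the x axis, with black lines at the medians and a dashed line at equal levels. The medians of the tail-to-tail (convergent) pairs, -1.06 and -0.94, lie above those of the head-to-head (divergent) pairs, -2.21 and -2.19.

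In the 33 pairs with the antisense gene higher in both libraries, the coding gene was below 1 TPM in both libraries in 14, at 1 TPM or more in both in 15, and mixed in 4. For 26 pairs the lower bound of the deposited TPM interval of the antisense gene lay above the upper bound of the coding gene in each library. The highest mean log2 ratio on TPM + 1 was that of Gm15318 (chromosome 17, 31152752-31163054, + strand), at 27.7 and 22.3 TPM, opposite Tff1, a trefoil peptide of the stomach lining, with 0 and 8 counts (0 and 0.38 TPM). Tff1 was thus listed at 0 in replicate 1, which allows up to 3 counts. Rab26os was at 12.6 and 13.8 TPM within Rab26, a GTPase of secretory granules, at 0.43 and 0.38. A small nucleolar RNA gene, Snord60, shares 78 exonic bases with Rab26os on the same strand. The counts of Rab26os, 63 and 107, were whole numbers, as when no fragment is split between genes. Whether Snord60 was counted as a gene of its own was not checked. Whole numbers therefore do not show whether its reads were counted for Rab26os.

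The next highest ratios also faced coding genes that were barely detected. Gm15343 was at 11.6 and 7.10 TPM opposite Spatc1l at 0.15 and 0.09, a log2 ratio of 3.45 and 2.89. Tmem147os was at 11.4 and 9.52 TPM and spans Gapdhs, the glycolytic enzyme of sperm, at 0.66 and 0.20. 4933431E20Rik was at 11.2 and 9.36 TPM opposite Eps8l3, a relative of an actin regulator, at 0.55 and 0.47. In all 3 the antisense RNA was abundant while the coding RNA was below 1 TPM. Tmem147os shares 177 exonic bases on its own strand with a second gene entry of that name, which is typed as a processed transcript. The counts of the antisense entry, 649 and 730, were whole numbers, as when no fragment is split between genes. Whether the second entry was counted separately was not checked, so its share of these reads is not known.

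Gm26982 was at 2.82 and 4.07 TPM with 3 exonic bases opposite Ghrl, the gene of ghrelin, which had 2 and 0 counts. 6330418K02Rik was at 2.62 and 3.53 TPM opposite Gal3st4, a galactose sulfotransferase, at 0.14 and 0.08. Gm13528 and 4930426D05Rik, with the values above, are also among the 10 highest by the mean log2 ratio on TPM + 1. That ratio was 2.31 and 2.75 for Gm13528 over Ralgps1 and 2.08 and 1.77 for 4930426D05Rik over Klhl14. Without the pseudocount the order of these pairs differs, since it then turns on coding levels near 0.

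At the low end the coding genes were abundant kidney products. Gm11788 reached 0.383% and 0.412% of Slc25a10. Gm15879 (chromosome 16, 4032839-4037847, - strand) was itself among the 12 highest, at 16.2 and 14.2 TPM, but reached only 0.941% and 0.881% of Dnase1, a secreted nuclease at 1726 and 1616 TPM. B230322F03Rik was at 1.38 and 1.06 TPM opposite Nudt19, a coenzyme A diphosphatase of kidney, at 196 and 113. In all, 4 pairs were under 1% in both libraries, these among them. By the mean log2 ratio on TPM + 1 the next lowest was 2900089D17Rik, at 1.45 and 3.05 TPM opposite Bri3 at 146 and 160. By the percentage in replicate 2 other pairs were lower than it, such as Man2c1os.

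Reads of an abundant coding gene that were assigned to the wrong strand would appear as antisense signal, so antisense genes opposite abundant exons were examined. There were 49 antisense genes with at least 100 exonic bases opposite a coding gene at 100 TPM or more in both libraries. Of these, 13 had 0 counts in both libraries and 17 had at most 3 counts in each, and the median antisense level was 0.0613% and 0.0597% of the coding level. Gm15962, for example, shares 491 exonic bases with Keg1 at 1121 and 1108 TPM and had 0 counts in both. The 11 expressed antisense genes in this set were at 0.383% to 4.13% of the coding level in replicate 1 and 0.412% to 2.96% in replicate 2. The 38 others reached at most 1.09 and 0.81 TPM, a separation that the choice by TPM fixes. Gm15962 was chosen after its values were seen.

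**Figure D5:**
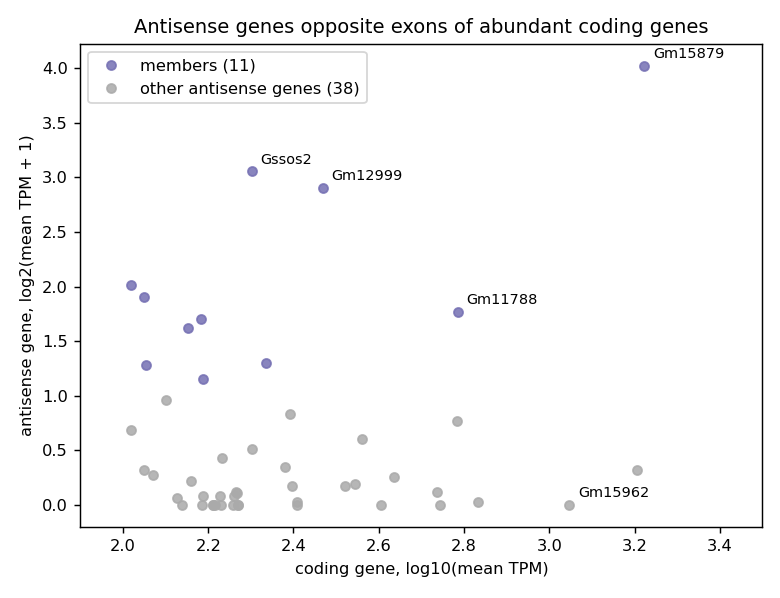
Antisense level, as log2 of the mean TPM plus 1 (y axis), against the coding level, as log10 of the mean TPM (x axis), for 49 antisense genes with at least 100 exonic bases opposite a coding gene at 100 TPM or more. The 11 expressed antisense genes (purple) were chosen by level and so lie above the 38 others (grey). Of the 49, 13 had 0 counts in both libraries, such as Gm15962.

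The antisense genes were compared between the libraries with a two-sided exact binomial test per gene on scaled counts, adjusted by Benjamini-Hochberg over all 18723 genes with 10 or more counts in sum. A gene was called at an adjusted p below 0.05 with a log2 ratio of 1 or more in size. Of the 161 antisense genes 2 were called (1.24%). Over all genes tested 8.21% were called, 5.62% higher and 2.59% lower in replicate 2, and over genes at 1 TPM or more in both libraries 1.87%. The difference between these shares was not tested, and the antisense share is near that of genes at 1 TPM. By the adjusted p alone 54 passed (33.5%, against 57.5% of all genes tested). The median size of the log2 count ratio was 0.27 among the antisense genes and 0.19 among all detected genes, and for 130 of the 161 it was within 0.5.

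Gm13563 was lower in replicate 2, with 122 and 56 counts (4.06 and 1.39 TPM), a log2 ratio of -1.42 (adjusted p = 8.96e-10, exact binomial test). Its partner Entr1, an endosomal protein gene, had a log2 ratio of -0.11. Gm16124 was higher in replicate 2, with 35 and 87 counts (2.10 and 3.64 TPM), a log2 ratio of 1.01 (adjusted p = 8.48e-04, exact binomial test). Its partner Cul5, a cullin of ubiquitin ligases, had a log2 ratio of 0.40. With edgeR's exact test and the common dispersion of all genes, neither was called. None of the 161 was called by that test, beside 476 of the 18723 genes tested, and 1 of the 161 had an unadjusted p below 0.05. The dispersion was estimated from these same libraries as 1 group, so it takes in the differences between them. Across pairs the log2 ratios between libraries of the antisense and the coding gene had the same sign in 76 of 142 and a Spearman correlation of 0.07, a description only, since pairs share libraries.

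The ratio of antisense to coding counts was compared between libraries by a two-sided Fisher's exact test, adjusted over the 477 antisense-coding pairs with enough counts, of which 9.64% were called. Of 138 pairs of expressed antisense genes 4 were called (2.90%). The 477 include these 138 and pairs of less abundant antisense genes, and the difference between the shares was not tested. The ratio for Gm16008 and Tnfrsf18, a receptor of T cells, was lower in replicate 2 by 2.69 on the log2 scale (adjusted p = 4.91e-21, Fisher's exact test), with Tnfrsf18 at 38 and 189 counts and Gm16008 at 235 and 181. Lymphocyte markers also differed, at 5.12 and 39.6 summed TPM with 6 of 6 called, and their part in this result was not tested.

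The other 3 pairs were the following. The ratio of Gm13563 to Entr1 was lower in replicate 2, with a log2 difference of -1.32 (adjusted p = 3.95e-07, Fisher's exact test). That of Gm10501 to Hspa1l, a heat shock protein gene with close relatives among which reads can be split, was lower, at -1.16 (adjusted p = 0.0039, Fisher's exact test), with Hspa1l at 31.1 and 65.7 estimated counts. The ratio of Tmem147os to Gapdhs was higher, at 1.35 (adjusted p = 0.0139, Fisher's exact test), with Gapdhs at 34 and 15 counts. The antisense genes Tmem147os and Gm10501 themselves had log2 ratios of -0.13 and -0.37 between the libraries.

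In structure the expressed antisense genes had more exonic sequence than antisense genes at large, by median. Overlapping exons of all transcripts of a gene were merged into blocks. The median exonic length was 1416 bases against 949.5 for all antisense genes with a row. The median number of blocks was 3 in both sets, and 19 genes (11.8% against 5.33%) had a single block. A gene with a single block can still have a transcript of several exons. The gene spans ran from 497 to 332651 bases, with medians of 6070 against 5928.5. On the same strand, 12 shared exonic bases with another gene, 1 of them with a coding gene: 6330562C20Rik, at 2.98 and 2.49 TPM, shared 94 bases with Anxa9. For 156 of the 161 the counts were whole numbers, as when no fragment is split between genes. For none did the deposited SD exceed 10% of the count. The overlaps are from M21 and the counts were made with annotation M4. Both values thus say nothing of reads from a gene that was not counted there.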

How the data were processed

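RNA sequencing of adult kidney was measured in 2 libraries of 1 group. The authors deposited, per the file headers, an expected count, a TPM and an FPKM for each gene. The deposited tables also give posterior SDs of counts and lower and upper TPM bounds (signal values that are never negative), and the transcript tables hold isoform shares in percent. The text records beside them name mm10 and annotation M4, and which aligner and counter were used is not given in the sources used here. A gene with no counts was read as up to 3 counts.

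Gene types and positions came from GENCODE M21 on GRCm38, which holds 42462 of the 43346 gene rows. A coding partner is the protein-coding gene with a row whose span overlaps on the other strand, the one with the longest exonic and then span overlap. Log2 ratios used TPM with a pseudocount of 1, and percentages of the coding level used TPM without it. Counts were rounded and scaled by TMM factors of 1.03 and 0.974 (edgeR 4.0.16, R 4.3.3), with DESeq2 1.42.0 size factors as an alternative. Exact tests used scipy 1.17.1 and compare the reads of these libraries, not conditions. On simulated data with 200 genes or pairs changed 4-fold, the test between libraries recovered 99.5% (18693 genes) and the ratio test 98.5% (7803 pairs). The simulated counts held counting error only, whereas edgeR's common dispersion of these data was 0.0512. Genes of low count were not among those changed, so the recovered shares do not cover scarce genes or smaller changes. A prior count of 0.5 was used in log2 ratios of genes with a 0. Spike-ins, which held 1.59% and 2.29% of counts, were left out of tests. Depth was 67252609 and 87330097 expected counts, and errors from counts cover counting only.

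The members and lists were chosen with earlier results of these data known. Named were the 20 highest members, the 10 highest and 5 lowest ratios, the genes and pairs that differ between libraries, the 3 nearest to the threshold on each side, members with names ending in os, and members opposite kidney transcription factors, solute carriers and cell markers. Some genes that the rule names are not reported here. Genes added beyond this rule were chosen after their values were seen: those of the promoter, annotation-overlap and opposite-exon paragraphs, and Zfp335os by list. Alternatives covered thresholds, units, scaling, partner choice and leaving out a replicate. Tables on mm9 were not used.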

Additional observations from a re-analysis of the deposited data

How the results depend on the processing

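The number of expressed antisense genes, 161, was 247 with a TPM minimum of 0.5 and 99 with a minimum of 2, and lay between 166 and 200 when a replicate was left out. The median log2 ratio of antisense to coding level, -1.80 as the mean of both libraries, was -2.15 with no pseudocount and -2.10 with the coding partner of highest TPM, and between -1.73 and -2.03 when a replicate was left out, so it stayed negative under each alternative tried. Of the 2 antisense genes that differed between libraries, 1 was called with total-count scaling and 0 with edgeR's exact test (1 at an unadjusted p below 0.05), while 18 were called with the minimum ratio lowered to 1.5-fold. The 4 pairs with a differing ratio became 17 at that minimum. The shares over all genes and all pairs at that minimum are not given here. Over all genes edgeR's test called 476 of 18723. The number of members with a coding partner, 142, and of pairs with the antisense gene higher, 33, moved by less than 1.5 times under each alternative. The cause of these shifts was not tested beyond the thresholds themselves. No paired analysis was possible because the labels give 1 group. With a lowest count of 13 and 17, depth limits the least abundant genes.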

Other observations

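Of the 161 antisense genes, 59 had 1 transcript in the tables and 102 had more, up to 13. Among the latter the leading transcript held a median of 75.4% of the gene in replicate 1 and 74.8% in replicate 2, and in 17 the leading transcript differed between the libraries. For Gm13563, which was lower in replicate 2, the transcript that led in replicate 1 held 59.6% there and 44.1% in replicate 2. For 1600020E01Rik the share of that transcript was 53.0% and 29.9%. In 21 of the 102 genes 1 transcript held 90% or more in both libraries. For 4732440D04Rik alone the TPM and the count ratio between libraries differed by 1 or more on the log2 scale. They were -1.24 and -0.16, with 8.53 and 3.62 TPM but 509 and 562 counts in replicates 1 and 2.

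The noncoding RNA of the Rosa26 locus, Gt(ROSA)26Sor, widely used to carry transgenes in mice, was among the expressed antisense genes. It was at 4.26 and 4.03 TPM opposite Thumpd3 at 4.71 and 6.07, with 145 shared exonic bases. This gene was chosen after its values were seen.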
